A study of Mus musculus with 21 samples.

Results

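The genes described are Nfe2l2, which encodes the transcription factor NRF2, and 9 genes that NRF2 is known to activate: Gclc, Gclm, Slc7a11, Gsr, Txnrd1, Srxn1, Prdx1, Nqo1 and Sqstm1. They were looked up by symbol, and all 10 were found among the 23420 gene symbols of the deposited count table. RNA was sequenced from inflammatory monocytes, which the study calls IMs, and from tumor-infiltrating inflammatory monocytes, which it calls TIMs. A kit enriched the cells before they were sorted as CD45+, CD11b+, Ly6C high and Ly6G- cells, with Siglec-F+ cells left out. The series holds 21 libraries in 5 groups.

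A pair of models of lung squamous cell carcinoma (LUSC) were used, and each was compared with bone marrow (BM) IMs of tumor-free mice of the same strain. LN2E1 is a metastatic line derived from the KAL line, and its cells (500000 a mouse) were placed into the lung of FVB mice. TIMs were taken from the primary tumor (5 libraries) and from lymph node metastases (5 libraries), and BM IMs of naive FVB mice gave 3 libraries. LN4K1 is derived from KLN-205, and its cells (300000 a mouse) were injected into a vein of DBA2 mice. TIMs of the lung metastases gave 5 libraries and BM IMs of naive DBA2 mice gave 3. The cell line, the mouse strain, the number of cells injected, the route of injection and the tissue therefore change together between the models and cannot be told apart. Within each model TIMs and BM IMs also differ in tissue, and the study's methods describe mincing and enzyme digestion for lung tissue. Tumor, tissue and preparation cannot be told apart there either. The labels give no age, sex or pooling for these mice and nothing that names separate animals. The study's methods report both sexes and an age range at injection for its mice in general, but not for each library. They also call the libraries of a group technical replicates, so each p-value measures only the spread between these libraries.

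NRF2 is held at a low level in resting cells by KEAP1, an adaptor that hands it to a CUL3 ubiquitin ligase for destruction. Oxidants and electrophiles modify KEAP1, NRF2 then builds up, pairs with a small MAF protein and binds antioxidant response elements in front of its target genes. In macrophages and monocytes the targets supply glutathione and reduced thioredoxin, and in squamous lung tumors the pathway is often switched on by mutation of the cancer cells. Since regulation is largely at the level of protein stability, a level of Nfe2l2 RNA is not a level of NRF2 activity.

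The core of the antioxidant response element, TGACNNNGC on either strand, was searched in the 300-base promoters of the RefSeq table (GRCm38.p6, 250 bases before to 50 after a gene's start). The table held 10 promoters for 8 of the members, and 5 of those promoters, of 5 genes, held the core. Of all 32851 promoters listed, 4071 held it (12.4%), and of 27025 gene symbols 3781 did (14.0%). The 5 stretches are shown because they are the letters to which NRF2 and its MAF partner would be matched in the genes whose RNA levels follow. Each is written 5′ to 3′ on the strand that reads TGACNNNGC, with the core in capitals.
Nfe2l2 (chr2:75704870-75704913, minus strand): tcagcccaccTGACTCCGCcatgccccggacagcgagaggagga
Srxn1 (chr2:152105542-152105570, minus strand): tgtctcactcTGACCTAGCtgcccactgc
Gclm (chr3:122245398-122245456, minus strand): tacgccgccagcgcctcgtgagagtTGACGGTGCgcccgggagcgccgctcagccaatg
Prdx1 (chr4:116685441-116685499, minus strand): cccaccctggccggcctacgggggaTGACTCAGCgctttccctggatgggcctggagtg
Txnrd1 (chr10:82859089-82859147, minus strand): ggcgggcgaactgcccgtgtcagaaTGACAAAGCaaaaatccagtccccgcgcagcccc

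Relative to the annotated start, the core lay at -240 to -232 for Nfe2l2, at 29 to 37 for Srxn1, at -134 to -126 for Gclm, at -133 to -125 for Prdx1 and at -92 to -84 for the second of 3 Txnrd1 starts. The Nfe2l2 core was on the gene's own strand and the other 4 were on the opposite strand. With 1 more fixed base (TGACNNNGCA), 1 member promoter of the 10 matched, against 3.04% of all promoters. The Prdx1 core overlapped the AP-1 motif TGANTCA, so its letters do not tell one factor from the other. These letters were not found in the windows of Slc7a11, Nqo1 and Sqstm1 or of the other Txnrd1 starts. A match of letters is a description and not a binding site.

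Library totals lay between 80772922 and 101043568 counts assigned to genes, and 3910 symbols had no count in any library. All 10 members passed the low-count filter in every comparison. Values are given as CPM, the count per 1000000 counts of the library after TMM scaling over all 21 libraries. The genes behind the sort were high in every library, with a summed level of Ptprc, Itgam, Ly6c1, Ly6c2, Ccr2 and Csf1r of 5452 to 9817 CPM. Replicate 1 of the lymph node TIMs and replicate 3 of the LN4K1 lung TIMs stood apart from their groups, with correlations of 0.944 and 0.951 with the rest of the group across genes, against 0.978 to 0.993 in the other libraries. Every call on a member that they change is given beside its result. A list of 6 granulocyte precursor genes summed to 2223 to 2778 CPM in the BM IMs and 18.5 to 254 CPM in the TIMs, and 8 cell cycle genes summed to 1575 to 1891 CPM and 81.8 to 161 CPM. In bulk RNA fewer cells of a type cannot be told apart from less RNA per cell. These lists moved with every TIM comparison, and their part in the members' results was not tested.

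To compare genes with each other, the mean CPM was divided by the summed exon length in kilobases. On that scale Gsr, the glutathione reductase, was the highest member in both FVB-derived TIM groups and in FVB BM IMs, at 381 (primary tumor), 416 (lymph node) and 412 (FVB BM) CPM per kb. Prdx1, a peroxiredoxin that removes peroxides, led in the DBA2 host, at 132 CPM per kb in BM IMs and 158 in lung TIMs. The lowest member was Nqo1 in 4 groups, at 0.0647 to 1.02 CPM per kb over all 5 groups, and Slc7a11 in FVB BM IMs at 0.479. The remaining members lay between, for example Sqstm1 at 163 and Txnrd1 at 33.6 CPM per kb in the primary tumor TIMs.

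**Figure D1:**
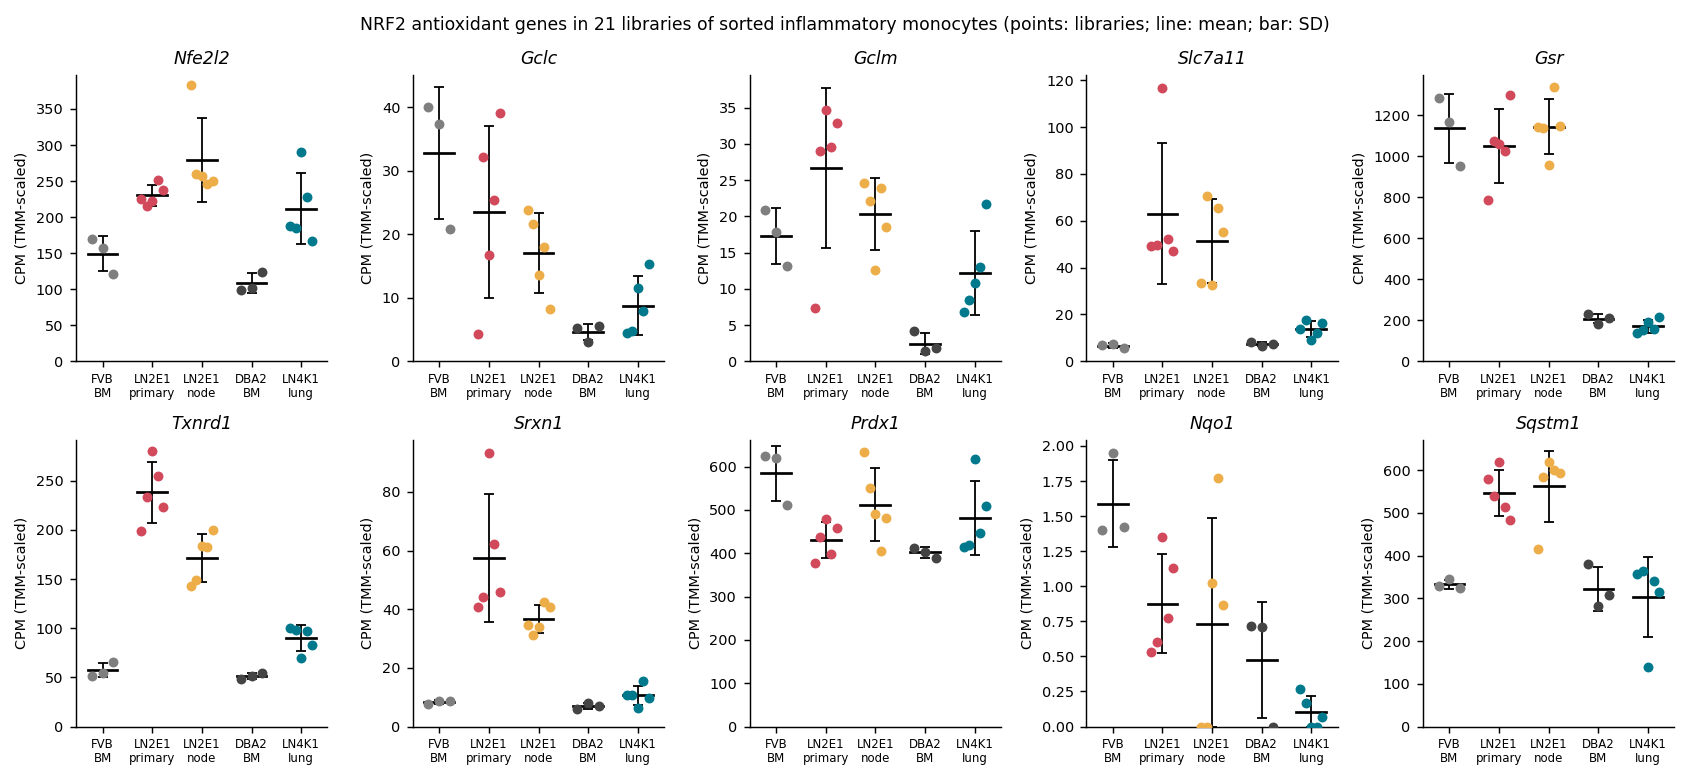
CPM (linear axis from 0) of the 10 genes in each library of the 5 groups; points are libraries, lines are group means and bars are SD (the bars of Nqo1 in lymph node and lung TIMs are cut at 0). Slc7a11, Srxn1 and Txnrd1 stood highest in the primary tumor and lymph node TIMs, and Gsr separated the FVB from the DBA2 hosts.

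Slc7a11, Srxn1 and Txnrd1 were the members that rose the most in the TIMs of the LN2E1 model, by 2.99-fold to 9.35-fold over FVB BM IMs. In the primary tumor TIMs 5 members rose and 1, Prdx1, fell, where 33.3% of the 14569 genes tested were higher and 28.6% lower (61.9% in all). In the lymph node TIMs 5 members rose and 0 fell, against 20.2% higher and 17.2% lower of 13273 genes (37.4% in all). In the LN4K1 lung TIMs 4 members rose and 0 fell, against 13.9% higher and 11.0% lower of 13624 genes (24.9% in all). Calls are at an adjusted p below 0.05 in edgeR's quasi-likelihood test, adjusted over all genes tested in the comparison. The median log2 fold change of the members was 0.61 in the primary tumor, 0.50 in the lymph node and 0.63 in the lung, where the median of all genes was 0.08, -0.04 and 0.03. Nfe2l2, Slc7a11 and Txnrd1 were called higher in all 3 TIM comparisons, as were 7.94% of the 12782 genes tested in each, and 0 members were lower in each (7.01% of genes). The primary tumor and lymph node comparisons share the 3 FVB BM libraries, so they are not independent.

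The libraries of 5 members were all higher than those of the BM IMs in the primary tumor comparison (background 30.7% of genes), and those of 2, Prdx1 and Nqo1, were all lower (background 27.3%, and 58.1% either way). In the lymph node comparison 5 members were higher without overlap and 0 lower (background 20.1% and 22.8%, 42.9% either way). In the lung comparison the numbers were 5 and 0 (background 19.9% and 14.9%, 34.8% either way), and Prdx1 was among the 5 although its change was not called. The stricter thresholds of the study, an adjusted p below 0.0001 and an absolute log2 change above 1, were applied to the edgeR values. Slc7a11, Srxn1 and Txnrd1 passed them in the primary tumor (background 12.9%) and the lymph node (5.71%), and no member did in the lung (2.97%).

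**Figure D2:**
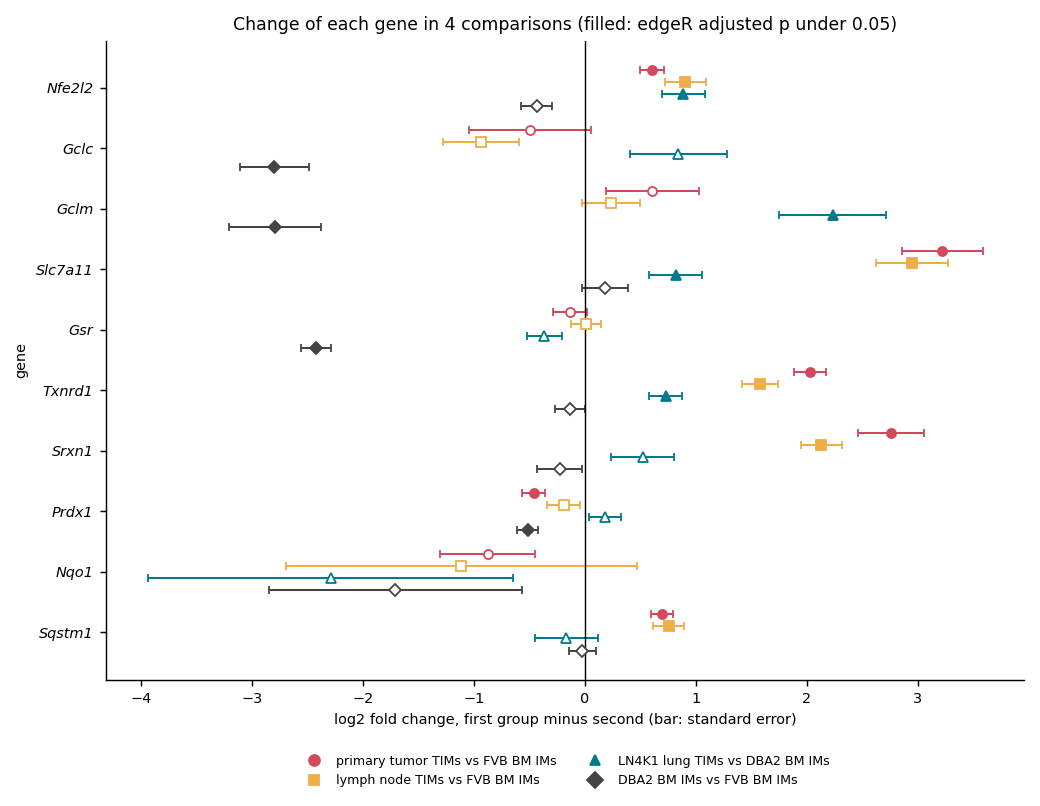
Log2 fold change with its standard error of each of the 10 genes in 4 comparisons, from edgeR; filled points have an adjusted p below 0.05. Slc7a11, Srxn1 and Txnrd1 have the largest increases in the LN2E1 model, and Gclc, Gclm and Gsr the largest decreases between the BM IMs of the 2 strains.

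Nfe2l2 (chr2:75675513-75704641, minus strand, GRCm38, as are all gene positions given) is the transcription factor itself. Its level was 169, 158 and 122 CPM in the FVB BM IMs and 225, 215, 222, 252 and 238 CPM in the primary tumor TIMs. In the lymph node TIMs it was 383, 260.1, 256, 246 and 249.8 CPM. Every TIM library of the LN2E1 model was above every FVB BM library, and replicate 1 of the lymph node was far above the other libraries of its group. The level rose 1.52-fold in the primary tumor (log2 0.61 ± 0.11 SE, adjusted p = 0.00103, edgeR) and 1.87-fold in the lymph node (log2 0.90 ± 0.18, adjusted p = 0.00364). In the DBA2 host it was 99.5, 102 and 124 CPM in BM IMs and 188, 185, 289.8, 229 and 167 CPM in lung TIMs. These groups did not overlap, and the rise was 1.85-fold (log2 0.89 ± 0.19, adjusted p = 0.00906, edgeR). The change in the primary tumor and that in the lung differed by -0.26 ± 0.22 on the log2 scale, which did not pass the test (adjusted p = 0.409).

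Slc7a11 (chr3:49892526-50443614, minus strand) encodes xCT, the subunit of the cystine/glutamate exchanger that brings in the cystine from which glutathione is made. In FVB BM IMs it was low, at 6.98, 7.56 and 5.48 CPM, and in the primary tumor TIMs it was 49.0, 49.7, 117, 52.3 and 47.0 CPM. The lymph node TIMs had 33.5, 70.7, 32.4, 65.5 and 55.0 CPM. All 10 libraries of LN2E1 TIMs lay above all BM libraries, and replicate 3 of the primary tumor stood above its group. The rise was 9.35-fold in the primary tumor (log2 3.22 ± 0.36, adjusted p = 5.85e-05, edgeR) and 7.71-fold in the lymph node (log2 2.95 ± 0.32, adjusted p = 8.26e-05). The BM IMs of the DBA2 host had 8.31, 6.54 and 7.40 CPM and the lung TIMs 13.9, 17.5, 9.14, 12.2 and 16.2 CPM. These libraries did not overlap either, with replicate 3 the lowest of the lung TIMs, and the rise was 1.76-fold (log2 0.82 ± 0.23, adjusted p = 0.0316, edgeR). That call was lost when any of the 3 DBA2 BM libraries or of lung replicates 1, 2 and 5 was left out (adjusted p from 0.0563 to 0.124, edgeR), while without lung replicate 3 it was 0.94 (adjusted p = 0.0027).

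The change in Slc7a11 was 5.37-fold larger in the primary tumor than in the lung metastases, each against its own BM (log2 difference 2.42 ± 0.41, adjusted p = 0.00108, edgeR). Its partner Slc3a2, the heavy chain that carries xCT to the cell surface and was named here after its values were seen, was 247 CPM in FVB BM IMs, 434 CPM in primary tumor TIMs and, in lymph node TIMs, 518 CPM (log2 0.80 and 1.07, adjusted p = 0.000168 and 0.000127, edgeR). In the lung metastases Slc3a2 was 252 CPM against 218 CPM (log2 0.13 ± 0.14, adjusted p = 0.553).

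Gclc (chr9:77754535-77794485, plus strand) and Gclm (chr3:122245557-122270732, plus strand) encode the catalytic and the modifier subunit of glutamate-cysteine ligase, the rate-limiting enzyme of glutathione synthesis. Their libraries varied widely. Gclc was 40.1, 37.4 and 20.9 CPM in FVB BM IMs, 4.28, 32.2, 16.7, 25.3 and 39.1 CPM in those of the primary tumor and 23.8, 21.6, 13.6, 18.0 and 8.27 CPM in those of the lymph node. The groups overlapped in both comparisons, and the changes of -0.50 ± 0.55 and -0.94 ± 0.34 on the log2 scale were not called (adjusted p = 0.459 and 0.055, edgeR). The second one was called without FVB BM replicate 3 (-1.18, adjusted p = 0.0332) and without lymph node replicate 1 (-1.09, adjusted p = 0.0241). A filter of 10 counts in every library (adjusted p = 0.0327) and DESeq2 (adjusted p = 0.0294) also called it. In DBA2 BM IMs Gclc was 5.26, 3.08 and 5.50 CPM, and in the lung TIMs it was 4.46, 4.72, 11.5, 7.87 and 15.3 CPM, which overlapped (log2 0.84 ± 0.44, adjusted p = 0.195).

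Gclm was 20.9, 17.8 and 13.1 CPM in FVB BM IMs, 7.34, 29.0, 34.7, 29.5 and 32.8 CPM in the TIMs of the primary tumor and 24.6, 22.1, 12.6, 23.9 and 18.5 CPM in those of the lymph node. Replicate 1 of the primary tumor was below all FVB BM libraries and the other 4 were above them. With all libraries the log2 change was 0.61 ± 0.42 (adjusted p = 0.238, edgeR), and without that replicate it was 0.85 (adjusted p = 0.00219). The lymph node change was 0.24 ± 0.26 (adjusted p = 0.523). In DBA2 mice Gclm was 4.13, 1.43 and 1.76 CPM in BM IMs and 6.85, 8.48, 10.8, 13.1 and 21.7 CPM in lung TIMs, with no overlap. It rose there 4.71-fold (log2 2.24 ± 0.48, adjusted p = 0.0086, edgeR), and the difference from the primary tumor change, -1.60 ± 0.65, did not pass (adjusted p = 0.0801). It passed when DBA2 BM replicate 1 was left out (-2.22, adjusted p = 0.0289) and, narrowly, in DESeq2 without shrinkage (-1.56, adjusted p = 0.049987). Exons of Gclm share 296 bases with exons of Gm17494 on the other strand and Gm6061 on the same strand. The libraries were not stranded, so some of its reads could be those of either gene.

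Txnrd1 (chr10:82833951-82897712, plus strand) encodes the cytosolic thioredoxin reductase, which returns thioredoxin to its reduced form with electrons from NADPH. Its level was 51.5, 54.9 and 65.5 CPM in FVB BM IMs, 199, 234, 280.2, 255 and 223 CPM in the TIMs of the primary tumor and 143, 149, 183, 182 and 200.4 CPM in those of the lymph node. Spread within each group was small beside the distance to the BM IMs, and no library overlapped. It rose 4.09-fold (log2 2.03 ± 0.15, adjusted p = 3.02e-06, edgeR) and 2.99-fold (log2 1.58 ± 0.16, adjusted p = 4.83e-05). In DBA2 mice it was 48.3, 51.8 and 54.3 CPM in BM IMs and 100.3, 98.5, 69.9, 97.6 and 83.1 CPM in lung TIMs. The rise there was 1.66-fold without overlap (log2 0.73 ± 0.15, adjusted p = 0.00663, edgeR), and the primary tumor change was 2.50-fold larger (log2 difference 1.32 ± 0.20, adjusted p = 0.000616).

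Txnrd1 was the 1 member whose lymph node and primary tumor levels differed in the test, where 11.7% of 13488 genes were called, 5.55% lower and 6.15% higher in the lymph node. It was 1.38-fold higher in the primary tumor TIMs (log2 lymph node minus primary -0.46 ± 0.12, adjusted p = 0.0314, edgeR). The libraries of the sites overlapped for all 10 members (background 14.4% without overlap, 5.61% higher and 8.84% lower), 0 members passed the study's thresholds (background 0.0297%), and the Txnrd1 call held in 5 of 10 fits with 1 library left out (adjusted p 0.0514 to 0.0792 in the others, which left out primary replicates 2, 3, 4 and 5 and lymph node replicate 2). Over the 10 members the median log2 difference between the sites was -0.26, against -0.03 for all genes.

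Srxn1 (chr2:152105516-152111376, plus strand) encodes sulfiredoxin, which restores over-oxidized peroxiredoxins. It was 7.69, 8.74 and 8.58 CPM in FVB BM IMs, 40.9, 44.2, 93.4, 62.4 and 45.8 CPM in the TIMs of the primary tumor and 34.5, 31.4, 33.8, 42.3 and 40.8 CPM in those of the lymph node. None of the TIM libraries overlapped the BM libraries, and primary tumor replicate 3 was the highest, as for Slc7a11. The rise was 6.79-fold (log2 2.76 ± 0.30, adjusted p = 4.31e-05, edgeR) and 4.39-fold (log2 2.13 ± 0.18, adjusted p = 1.72e-05). DBA2 BM IMs had 5.85, 8.12 and 7.07 CPM and lung TIMs 10.6, 10.8, 6.24, 15.5 and 9.78 CPM. Only replicate 3 fell within the BM range, and the 1.44-fold difference was not called (log2 0.52 ± 0.28, adjusted p = 0.216, edgeR) unless that replicate was left out (0.66, adjusted p = 0.0344). The changes in the models differed 4.78-fold (log2 difference 2.26 ± 0.41, adjusted p = 0.00146).

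Prdx1 (chr4:116685544-116700822, plus strand), the peroxidase that sulfiredoxin restores and thioredoxin reduces, did not rise with Srxn1 and Txnrd1. It was 624, 619 and 512 CPM in FVB BM IMs and 378, 438, 479, 399 and 459 CPM in primary tumor TIMs, all below the BM libraries. It fell by 0.46 ± 0.10 on the log2 scale (BM IMs 1.38-fold higher, adjusted p = 0.00378, edgeR). In the lymph node TIMs it was 633, 551, 491, 405 and 481 CPM, which overlapped the BM IMs (log2 -0.19 ± 0.15, adjusted p = 0.367). In the DBA2 host it was 413, 404 and 388 CPM in BM IMs and 414, 419, 619, 446 and 509 CPM in lung TIMs, with a narrow gap between the groups and a change of 0.18 ± 0.14 that was not called (adjusted p = 0.405, edgeR). The changes in the models differed by -0.62 ± 0.18 (adjusted p = 0.017), and without FVB BM replicate 2 by -0.58 (adjusted p = 0.0505). How the authors counted reads that match several places is not given in the sources used here, so reads shared with closely related copies of Prdx1 leave its level uncertain.

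Gsr (chr8:33652523-33698163, plus strand) encodes the glutathione reductase, which turns oxidized glutathione back to its reduced form. It was 1284, 1169 and 955 CPM in FVB BM IMs, 787, 1076, 1061, 1028 and 1299.7 CPM in the TIMs of the primary tumor and 1146, 1137, 956, 1339 and 1149 CPM in those of the lymph node. The groups overlapped, and neither the primary tumor (log2 -0.13 ± 0.15, adjusted p = 0.474, edgeR) nor the lymph node (0.01 ± 0.13, adjusted p = 0.952) change was called. In the DBA2 host Gsr was 230.4, 184 and 211 CPM in BM IMs and 138, 153, 193, 157 and 215 CPM in lung TIMs, again overlapping (log2 -0.36 ± 0.16, adjusted p = 0.125). Every one of the 13 libraries from FVB mice was thus above every one of the 8 from DBA2 mice, in BM and tumor.

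Nqo1 (chr8:107388225-107403206, minus strand), a quinone reductase that is widely used as a readout of NRF2, was nearly unexpressed in these cells. It had 0 to 191 counts per library, and the highest level was 1.95 CPM in FVB BM replicate 2. FVB BM IMs had 1.40, 1.95 and 1.42 CPM and primary tumor TIMs 0.528, 0.599, 1.35, 0.773 and 1.13 CPM, lower without overlap. The difference was not called (log2 -0.88 ± 0.42, adjusted p = 0.0982, edgeR) except without primary tumor replicate 3 (-1.09, adjusted p = 0.0399). Lymph node replicates 1 and 2 had no counts and the others 1.02, 1.77 and 0.867 CPM. The lung TIMs had 0.267, 0.169, 0, 0 and 0.0669 CPM and the DBA2 BM IMs 0.719, 0.708 and 0 CPM. A library with 0 counts allows a level of up to 3 counts, which was 0.0268 to 0.0405 CPM over the libraries, a limit that covers counting error only. Neither change was called (adjusted p = 0.629 and 0.355, edgeR).

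Sqstm1 (chr11:50199366-50210827, minus strand) encodes p62, an autophagy adaptor that binds KEAP1 and is itself an NRF2 target. It was 329, 345 and 325 CPM in FVB BM IMs, 579, 539, 619, 513 and 484 CPM in the TIMs of the primary tumor and 416, 584, 620.0, 601 and 593 CPM in those of the lymph node. All TIM libraries were above the BM libraries, with replicate 1 the lowest of the lymph node. The rise was 1.62-fold (log2 0.69 ± 0.10, adjusted p = 0.000248, edgeR) and 1.69-fold (log2 0.76 ± 0.14, adjusted p = 0.00221). The DBA2 BM IMs had 380.5, 282 and 307 CPM and lung TIMs 357, 363, 139, 341 and 314 CPM. Replicate 3 was below every other library, the groups overlapped, and the change was -0.17 ± 0.28 (adjusted p = 0.72, edgeR) and 0.02 without that replicate (adjusted p = 0.93). The model difference of 0.88 ± 0.32 was not called with all libraries (adjusted p = 0.0567), and was called without lung replicate 1 (0.95, adjusted p = 0.0473), 2 (0.96, adjusted p = 0.0436) or 3 (0.69, adjusted p = 0.00399). It was also called with DESeq2 size factors (adjusted p = 0.0429, edgeR), with a filter of 10 counts in every library (adjusted p = 0.0321) and in DESeq2 without shrinkage (adjusted p = 0.0216). Exons of Sqstm1 share 580 bases with those of Mrnip on the other strand, which libraries without strand do not separate.

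Over the interaction as a whole, 3 members (Slc7a11, Txnrd1 and Srxn1) changed more upward in the primary tumor than in the lung metastases and 1 (Prdx1) the other way, against 13.2% and 13.3% of 15182 genes tested (26.5% in all), and 0 members passed the study's thresholds (background 0.369%). The median member difference was 0.56 and that of all genes 0.08. Without lung replicate 3 the numbers were 4 and 1.

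The BM IMs of tumor-free mice already differed between the strains for 4 members. Gsr, Gclc, Gclm and Prdx1 were lower in DBA2 than in FVB, against 9.57% of 12905 genes lower, 11.5% higher and 21.1% called in all. Gsr alone also passed the study's thresholds (background 0.403%). FVB BM IMs had 5.35-fold more Gsr (log2 DBA2 minus FVB -2.42 ± 0.13, adjusted p = 3.23e-05, edgeR), 6.95-fold more Gclc (-2.80 ± 0.31, adjusted p = 0.000901) and 6.93-fold more Gclm (-2.79 ± 0.41, adjusted p = 0.00324). The difference for Prdx1 was 1.43-fold (-0.52 ± 0.10, adjusted p = 0.00848). With Nqo1, 5 members were lower without overlap in DBA2 and 0 higher (background 21.5% and 20.5%, 42.0% either way). For Nfe2l2 itself the log2 difference was -0.43 ± 0.14, which did not pass in the test used here (adjusted p = 0.0576, edgeR). It passed without FVB BM replicate 3 (-0.55, adjusted p = 0.00563), with a filter of 10 counts in every library (adjusted p = 0.0482) and in DESeq2 (adjusted p = 0.0299). Slc7a11, Txnrd1, Srxn1 and Sqstm1, which rose in the LN2E1 TIMs, had strain differences of 0.18, -0.13, -0.23 and -0.02, none of which was called (adjusted p from 0.45 to 0.919). A list of 9 neutrophil genes summed to 2760 to 3594 CPM in FVB BM IMs and 1212 to 1612 CPM in DBA2 BM IMs, and their part in the strain difference was not tested.

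The order of the 5 groups differed among the members. Slc7a11, Srxn1 and Txnrd1 ran from primary tumor to lymph node to lung TIMs and then to the BM IMs. The lymph node libraries lay wholly above the lung libraries for these 3 genes, and those of the lung wholly above the next group for Slc7a11 and Txnrd1, while primary tumor and lymph node, and FVB and DBA2 BM IMs, overlapped. Gsr, Gclc and Gclm had all 3 FVB groups above the DBA2 groups by their means, without overlap at that step only for Gsr. Gclm lung libraries were separate from DBA2 BM libraries, Sqstm1 primary tumor from FVB BM libraries, and Nqo1 FVB BM from primary tumor libraries. Neighbouring groups overlapped at every step for Nfe2l2, Gclc and Prdx1.

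Markers of other cells moved with the TIM groups. A list of 10 squamous epithelial genes summed to 59.7 to 105 CPM in the primary tumor, 10.0 to 140 CPM in the lymph node, 62.9 to 120.2 CPM in 4 of the lung TIM libraries and 1.27 CPM in lung replicate 3, against 0.929 to 2.79 CPM in the BM IMs. Most of that sum in the lymph node was Cdh1, at 8.14 to 136 CPM. The squamous keratin genes Krt5 and Krt14 and the squamous regulator Trp63 were at or near 0, with at most 2.49 CPM (Krt14 in 1 primary tumor library). The simple-epithelial keratins Krt8 and Krt18 were 5.71 to 18.5 CPM and 4.85 to 16.2 CPM in primary tumor TIMs and averaged 22.5 and 29.6 CPM in lung TIMs, against at most 1.07 CPM in BM IMs. In the lymph node they did not exceed 0.107 and 0.505 CPM, while Epcam was 0.212 to 4.40 CPM there, against at most 0.113 CPM in BM IMs. Primary tumor replicate 3, the highest for Slc7a11 and Srxn1, had 63.6 CPM of squamous genes, and 365 CPM of 6 fibroblast genes, the lowest of its group, where the others had up to 1112 CPM. A list of 7 lung epithelial genes summed to 156 to 884 CPM in primary tumor TIMs, at most 0.981 CPM in the lymph node, 7.58 to 107 CPM in the lung and 1.15 to 2.60 CPM in BM IMs. Macrophage genes summed to 1288 to 1436 CPM in FVB BM IMs and 2307 to 3014 CPM in the primary tumor, and to 865 to 2036 CPM in DBA2 BM IMs and 3924 to 5571 CPM in the lung. Eosinophil genes summed to 488 to 1323 CPM in BM IMs and 18.5 to 88.9 CPM in TIMs. Fibroblast genes were 0.835 to 87.1 CPM in lymph node TIMs and at most 0.359 CPM in BM IMs. A list of 5 endothelial genes summed to 51.5 to 70.8 CPM in the primary tumor and 55.5 to 110 CPM in the lymph node. It was 5.69 to 15.8 CPM in the lung and 4.85 to 13.6 CPM in BM IMs. T cell genes summed to 8.99 to 29.4 CPM in the primary tumor, 4.16 to 59.2 CPM in the lymph node, 9.04 to 27.4 CPM in the lung and 0.697 to 2.68 CPM in BM IMs. A list of 9 immediate early genes, Fos and Jun among them, summed to 9447 to 14941 CPM in FVB BM IMs and 15423 to 28979 CPM in DBA2 BM IMs. In TIMs it was 19021 to 24222 CPM in the primary tumor and 10208 to 14661 CPM in the lymph node. In the lung it was 24372 to 38525 CPM, and its part in the members' results was not tested. Lung replicate 3 had the lowest squamous, immediate early (24372 CPM) and sort marker (6965 CPM) sums of its group. Its Slc7a11, Srxn1, Txnrd1 and Sqstm1 were the lowest there too. It also had the highest Nfe2l2 (289.8 CPM) and Prdx1 (619 CPM). Its Gclc, Gclm and Gsr lay within the range of the other lung libraries, and its Nqo1 was 0 CPM, as in lung replicate 4. How much of the members' RNA came from other cells was not tested.

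**Figure D3:**
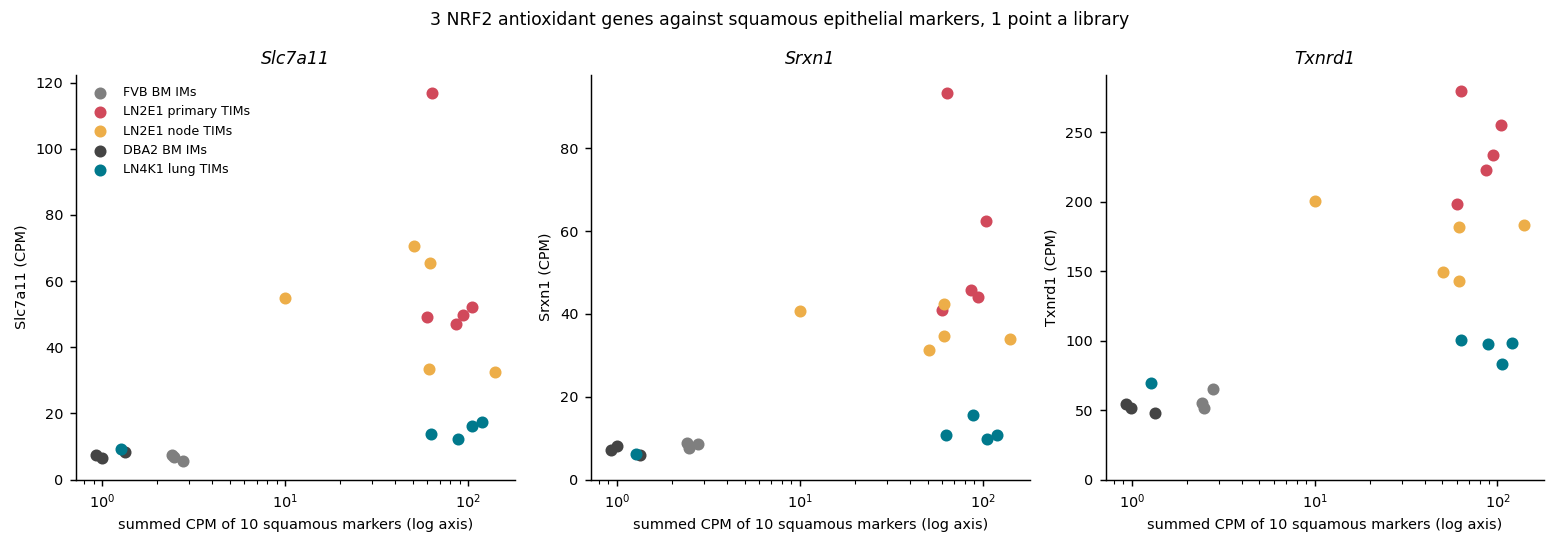
Slc7a11, Srxn1 and Txnrd1 (CPM, vertical) against the summed CPM of 10 squamous epithelial genes (horizontal, log axis); each point is a library, colored by group. Lung TIM libraries reach the same squamous sums as the LN2E1 TIM libraries at lower levels of the 3 genes, and lung replicate 3 sits with the BM IMs on the horizontal axis.

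The rest of the pathway was read from 107 further genes in 11 lists. In the primary tumor TIMs 34 of 106 tested rose and 37 fell, in the lymph node TIMs 27 and 27 of 105, and in the lung TIMs 21 and 19 of 104. Of all genes tested 33.3% rose and 28.6% fell in the primary tumor, 20.2% and 17.2% in the lymph node and 13.9% and 11.0% in the lung, and every list count that follows stands beside these shares. No list was tested for enrichment. Their median log2 fold changes were -0.09, -0.09 and 0.09, against 0.08, -0.04 and 0.03 over all genes. From each list the 3 genes with the largest mean change were named, and any other gene below was named after its values were seen.

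Of 11 partners and regulators of NRF2, 7 rose and 3 fell in the primary tumor, 3 and 2 in the lymph node and 2 and 1 in the lung. Maff, a small MAF partner, rose from 0.696 CPM to 16.6 CPM in the primary tumor (log2 4.56 ± 0.43, adjusted p = 1.8e-05, edgeR) and to 19.4 CPM in the lymph node (log2 4.80, adjusted p = 2.36e-05), and from 1.22 CPM to 4.74 CPM in the lung (log2 1.88, adjusted p = 0.0103). The other small MAF genes went different ways. Mafk rose in the primary tumor and lymph node (log2 1.27 and 1.73) and had a value of -0.45 in the lung (adjusted p = 0.211), and Mafg fell in all 3 (log2 -1.51, -1.55 and -0.996). Keap1 was not called in any TIM comparison (log2 -0.08, -0.08 and -0.34, adjusted p = 0.406, 0.742 and 0.269). Bach1, a repressor that competes for the same elements, rose in the primary tumor (log2 0.39, adjusted p = 0.00845, edgeR) and the lung (1.01, adjusted p = 0.000717).

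In the list for glutathione synthesis and transport 3 of 8 genes rose in the primary tumor and 2 of 8 in each other TIM group, and 0 fell. The genes that rose do not make glutathione from its amino acids, except for Slc3a2 as part of cystine import. Ggt5, which cleaves extracellular glutathione conjugates, rose from 2.32 to 12.4 CPM in the primary tumor (log2 2.39, adjusted p = 8.41e-05, edgeR) and from 1.40 to 9.04 CPM in the lung (log2 2.61, adjusted p = 0.000511). Abcc1, an exporter of such conjugates, rose in the primary tumor (log2 1.14, adjusted p = 0.00231) and lymph node (0.75, adjusted p = 0.0398). The lymph node call of Abcc1 was lost without FVB BM replicate 1 or 2 or lymph node replicate 3, 4 or 5 (adjusted p up to 0.140, edgeR). Chac2, which degrades glutathione, rose in the lung (log2 1.11, adjusted p = 0.0293), a call lost without DBA2 BM replicate 1 or 3 or lung replicate 2 or 5 (adjusted p up to 0.114).

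Of 15 glutathione peroxidases and transferases 3 rose and 5 fell in the primary tumor and 2 and 5 in the lymph node, while in the lung 5 rose and 2 fell of 14. Gstm1 had log2 values of -1.86, -1.98 and -1.21 in the primary tumor, lymph node and lung and fell in each (adjusted p = 2.16e-06, 1.3e-05 and 2.95e-05, edgeR), and reads of its close relatives leave its level uncertain. Mgst2 also fell in all 3, and Gsta4 rose in the primary tumor (0.398 to 1.72 CPM, adjusted p = 0.0296) and lung (0.0422 to 2.84 CPM, adjusted p = 0.012). The lymph node call of Mgst2 was lost without any 1 FVB BM library or lymph node replicate 4 (adjusted p up to 0.0664), and the primary tumor call of Gsta4 without FVB BM replicate 1 or 2 or primary replicate 4 (adjusted p up to 0.0899). Of 15 genes of the thioredoxin and peroxiredoxin system 2 rose and 7 fell in the primary tumor, 2 and 4 in the lymph node and 1 and 1 in the lung. Prdx4, the peroxiredoxin of the endoplasmic reticulum, fell in all 3 (log2 -1.53, -1.67 and -1.27), and Sesn2, a stress-inducible sestrin, rose in the primary tumor and lymph node (log2 1.42 and 0.93, adjusted p = 6.99e-05 and 0.00279) with a lung value of 0.32 (adjusted p = 0.526, edgeR), called without lung replicate 3 (0.51, adjusted p = 0.0388). Msrb1, a methionine sulfoxide reductase, rose in all 3 (log2 0.88, 1.08 and 0.46). Its lymph node call was lost without any 1 FVB BM library or lymph node replicate 3 or 5 (adjusted p up to 0.142), and its lung call without DBA2 BM replicate 1 or 2 (up to 0.0906). Txn1, the thioredoxin that Txnrd1 reduces, fell by 0.61 in the primary tumor (adjusted p = 0.000716) and had values of -0.20 and -0.32 in the lymph node and lung (adjusted p = 0.435 and 0.216).

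Of catalase and the superoxide dismutases 2 rose and 2 fell in the primary tumor, and 1 and 1 of the 4 in each other TIM group. Over the fits with 1 library left out, Sod3 was called higher in all 8 in the primary tumor (log2 3.18 to 4.75, adjusted p up to 0.0264, edgeR). In the lymph node and lung it was called in 0 of them. Sod2, the mitochondrial enzyme, rose from 98.9 CPM to 216 and 272 CPM in the LN2E1 TIMs (log2 1.11 and 1.46, adjusted p = 3.08e-05 and 0.00017, edgeR) and from 77.9 to 181 CPM in the lung (log2 1.14, adjusted p = 0.000791). Sod1, the cytosolic one, fell in the primary tumor and lung (log2 -0.99 and -0.73, adjusted p = 0.000418 and 0.0319). The lung call of Sod1 was lost without any 1 DBA2 BM library or lung replicate 1, 2 or 4 (adjusted p up to 0.108), and its lymph node value was called without lymph node replicate 1 (-0.83, adjusted p = 0.00625, edgeR). Of 8 genes that supply NADPH 1 rose and 5 fell in the primary tumor, 0 and 3 of 7 in the lymph node and 1 and 3 of 8 in the lung. Idh1, the cytosolic isocitrate dehydrogenase, fell from 556 to 202 CPM in the primary tumor (log2 -1.48, adjusted p = 1.55e-05) and by 1.57 in the lymph node (adjusted p = 2.86e-06), and was -0.02 in the lung (adjusted p = 0.907). With 1 library left out, Me2 was called lower in all 8 fits in the primary tumor (log2 -1.36 to -1.18) and lung (-0.81 to -0.76), and in 0 in the lymph node. Nnt was called lower in all 8 in the lung (-1.32 to -1.07) and in 0 in the primary tumor and lymph node.

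Among 10 tested genes of quinone and carbonyl detoxification, the list nearest to Nqo1, 2 rose and 5 fell in the primary tumor, 1 and 4 in the lymph node and 2 and 3 in the lung. Cbr3, a carbonyl reductase, rose in all 3 TIM groups (log2 1.01, 1.41 and 1.63, adjusted p = 0.00109, 0.00116 and 0.000126, edgeR), and Ptgr1, which reduces lipid-derived aldehydes and ketones, fell in all 3 (log2 -1.55, -1.57 and -1.11). Akr1b8, an aldo-keto reductase, was 8.30 CPM in the primary tumor against 0.105 CPM in FVB BM IMs (log2 6.27 ± 0.89, adjusted p = 0.000253) and 1.52 CPM in the lung against 0.0309 CPM in DBA2 BM IMs (log2 5.48, adjusted p = 0.00889), with few counts in either BM group.

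Of 7 heme and ferritin genes 1 rose and 1 fell in the primary tumor and 3 and 1 in each other TIM group. Fth1, the ferritin heavy chain, rose from 1793 CPM to 5683 and 5864 CPM in the LN2E1 TIMs (log2 1.65 and 1.71, adjusted p = 1.39e-05 and 3.36e-05, edgeR) and from 1518 to 3284 CPM in the lung (log2 1.03, adjusted p = 0.000631), with reads of its processed copies as a limit. Slc40a1, the iron exporter ferroportin, fell from 31.1 to 1.08 CPM in the lymph node (log2 -4.85, adjusted p = 0.00207) and from 28.5 to 1.998 CPM in the lung (-3.90, adjusted p = 0.0103). With 1 library left out, Blvrb was called higher in 6 of 8 fits in the lymph node (log2 0.58 to 0.73). In the lung it was called higher in 7 of 8 (0.56 to 0.72), and in the primary tumor in 0. Hmox1, heme oxygenase, had log2 values of 0.99 ± 0.39, 0.28 and 0.46 that were not called (adjusted p = 0.0512, 0.42 and 0.113, edgeR). Of 9 autophagy receptors and LC3 family genes, the list nearest to Sqstm1, 5 rose in the primary tumor, 6 in the lymph node and 1 in the lung, and 0 fell. Map1lc3a rose in the primary tumor and lymph node (log2 1.16 and 0.95, adjusted p = 0.000257 and 0.00482) with a lung value of 0.07 (adjusted p = 0.822), and Calcoco1 did likewise (log2 1.14 and 1.65, lung 0.29 with adjusted p = 0.512 and, without lung replicate 3, 0.47 with adjusted p = 0.0491, edgeR). With 1 library left out, Gabarap was called higher in all 8 fits in the primary tumor (log2 0.73 to 0.91) and lymph node (0.75 to 0.96). In the lung it was called higher in 5 of 8 (0.42 to 0.50).

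Of 9 genes of the NADPH oxidase and other oxidant sources 4 rose and 4 fell in the primary tumor, 4 and 3 in the lymph node and 2 and 3 in the lung. Nos2, the inducible nitric oxide synthase, had no counts in FVB BM IMs and was at least 1108-fold higher in the primary tumor TIMs (33.8 CPM) and at least 995-fold higher in the lymph node TIMs (30.3 CPM), taken against 3 counts per library. Mpo, the peroxidase of granulocyte precursors, fell from 1372 to 2.35 CPM in the primary tumor (log2 -9.21, adjusted p = 1.57e-05, edgeR). With 1 library left out, Xdh was called higher in all 8 fits in the primary tumor (log2 1.31 to 1.68) and lymph node (1.22 to 1.62). In the lung it was called higher in 2 of 8 (0.54 to 0.72). The ATF4 targets were read because ATF4 also activates Slc7a11. Of these 4 rose and 5 fell of 10 in the primary tumor, 3 and 4 in the lymph node and 1 and 4 of 9 in the lung. Slc7a5, an amino acid transporter, rose in the primary tumor and lymph node (log2 2.72 and 2.32, adjusted p = 7.59e-05 and 0.0071) with 0.31 in the lung (adjusted p = 0.567), and the serine pathway genes Psat1 and Shmt2 fell in all 3 (log2 -1.48 to -2.31).

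**Figure D4:**
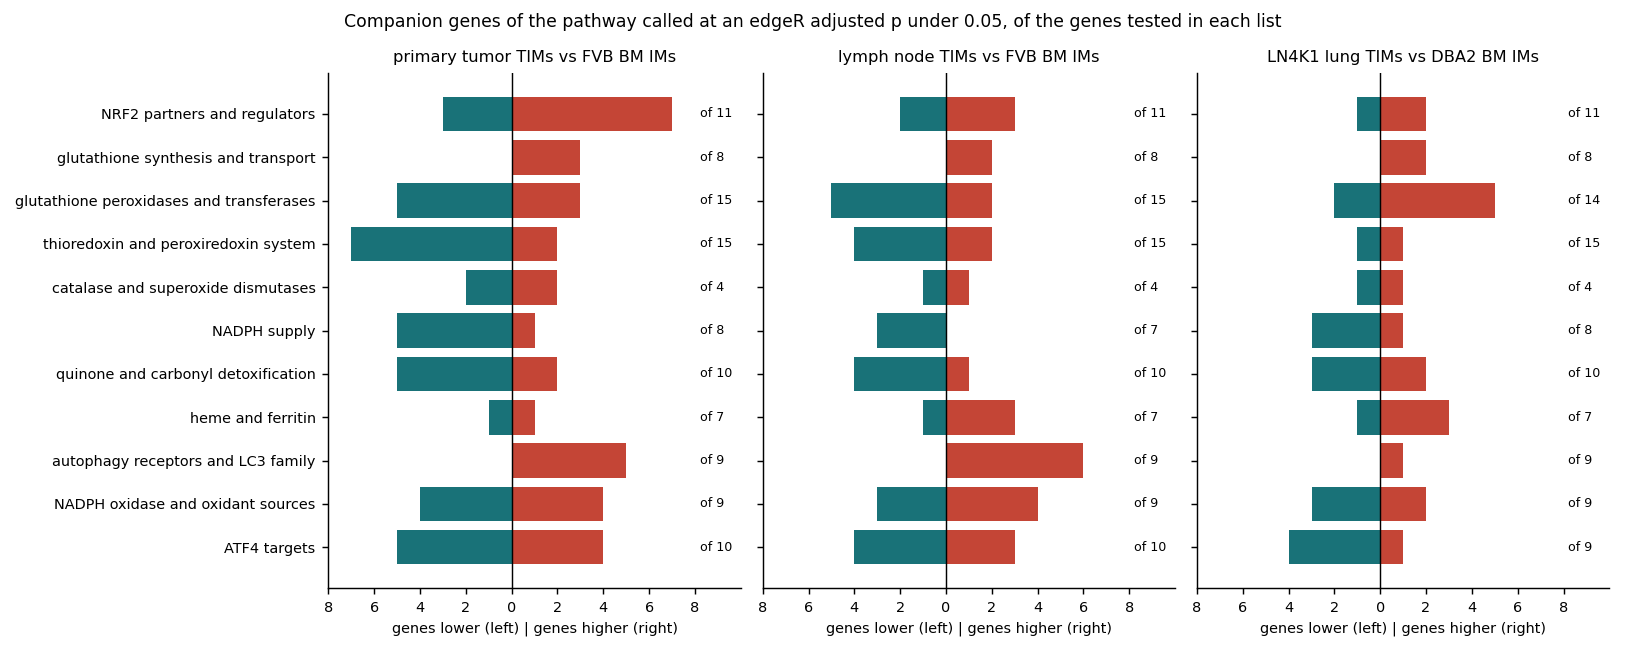
Numbers of genes called higher (right) and lower (left) in each of the 11 pathway lists, for the 3 comparisons of TIMs with BM IMs. The autophagy list has 5, 6 and 1 genes higher and 0 lower, and the thioredoxin and peroxiredoxin list 2, 2 and 1 higher and 7, 4 and 1 lower.

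The genes most like each member were sought over the 5 group means of log2 CPM, centred on their own mean, among 8047 other genes (8048 for Nqo1) with a mean log2 CPM of at least 3, and the distance is the root mean square difference in log2 units. This was done for the members that spanned at least 2 log2 units. Txnrd1 lay nearest to Usp6nl (0.08) and Mapk6 (0.10), Slc7a11 to Slc12a7 (0.16) and Pfkfb3 (0.18), and Srxn1 to Cnnm2 (0.18) and Pfkfb3 (0.25). Gsr lay nearest to 4930523C07Rik (0.09) and C1qb (0.24), Gclm to Agfg1 (0.15) and Xylt1 (0.19), and Gclc to Klhl21 (0.24) and Rac1 (0.28). Nqo1 had no gene closer than Uap1l1 (0.52). With 5 points, likeness of this kind is a description only.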

How the data were processed

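Total RNA of sorted IMs and TIMs was made into non-stranded libraries with a SMARTer ultra-low input kit and NexteraXT. The authors trimmed reads with BBDuk, aligned them to mm10 with BBMap and deposited raw counts per gene from featureCounts. The submitters' processing notes name featureCounts 1.5.2 and SAMtools 1.8, and how reads that match several genes were handled is not given in the sources used here. All 21 columns carried a sample's label. The members and the pathway and marker lists were chosen with earlier results of these data known.

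Each test used only the libraries of the groups compared, in edgeR 4.0.16 (R 4.3.3, TMM scaling, filterByExpr with a minimum count of 10, glmQLFit and glmQLFTest), adjusted by Benjamini-Hochberg over all genes tested. The difference between the models was an interaction term over 4 groups. The study itself used DESeq2 with an adjusted p of 0.0001 and a shrunken log2 change of 1. Here those thresholds were applied to the edgeR values, which are not shrunken. DESeq2 1.42.0 was run as an alternative and read at an adjusted p below 0.05. Other alternatives were DESeq2 size factors, other count filters, all 5 groups in 1 fit, the replicate number as a block and leaving out each library. The code was tested on simulated counts in 4 of the comparisons. Of 100 genes changed 2-fold it recovered 38 in the primary tumor, 34 in the lung, 31 between the tumor sites and 62 between the strains. Of 100 changed 4-fold it recovered 67, 66, 65 and 77. The same runs gave 4, 2, 3 and 10 false calls among the unchanged genes. Fewer genes were changed in them than were called in the data, so recovery in the real fits can differ. A change that was not called is therefore not shown to be absent. CPM is the count over the library total times its TMM factor (set over all 21 libraries, from 0.880 to 1.19), with no pseudocount; the gaps measured on log2 CPM used a prior count of 2. From each pathway list the 3 genes with the largest mean absolute log2 fold change over the TIM comparisons were named. Gene positions are from GENCODE vM21 and promoters from RefSeq. Depth was 80772922 to 101043568 counts a library, so counting error is small except for Nqo1 and other genes near 0.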

Additional observations from a re-analysis of the deposited data

Results flagged for a closer look

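For each member and each TIM group (30 groups of 5 libraries), the gap between the highest or the lowest library and its nearest neighbour was divided by the whole range of the group on the log2 CPM scale, and Dixon's limit for groups of 5 was applied. Chance puts about 1 in 20 groups past that limit. Replicate 1 of the lymph node TIMs was the highest for Nfe2l2 (383 CPM, gap over range 0.872) and the lowest for Sqstm1 (416 CPM, 0.85). Replicate 3 of the LN4K1 lung TIMs was the lowest for Sqstm1 (139 CPM, 0.848). In the primary tumor TIMs replicate 1 was the lowest for Gclm (7.34 CPM, 0.883) and replicate 3 the highest for Slc7a11 (117 CPM, 0.882).

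The change from BM IMs to TIMs differed between the LN2E1 primary tumor and the LN4K1 lung metastases for 4 members by the test of the difference itself. On the log2 scale it was 2.42 larger in the primary tumor for Slc7a11, 1.32 for Txnrd1 and 2.26 for Srxn1, and it differed by -0.62 for Prdx1 (adjusted p = 0.00108, 0.000616, 0.00146 and 0.017, edgeR). Between the tumor sites of the LN2E1 model, Txnrd1 differed by -0.46 as lymph node minus primary tumor (adjusted p = 0.0314, edgeR).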

How the results depend on the processing

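Leaving out each library in turn gave 6 to 7 members called in the primary tumor comparison (6 with all libraries), 5 to 6 in the lymph node (5), 3 to 5 in the lung (4), 0 to 1 between the tumor sites (1), 4 to 5 between the strains (4) and 3 to 5 in the interaction (4). In the same order the genes called over the whole table ranged from 7716 to 9066 (9025 with all), 3369 to 6040 (4969), 2134 to 5036 (3389), 889 to 2256 (1578), 1115 to 4828 (2719) and 2734 to 4708 (4022). With the study's thresholds applied to the edgeR values 3, 3, 0, 0, 1 and 0 members were called, and 1879, 758, 405, 4, 52 and 56 genes in all. DESeq2, with or without shrinkage, called 2 members between the tumor sites, Txnrd1 and Srxn1 (3078 genes in all). Fitting all 5 groups together moved the strain comparison from 2719 to 1595 genes with the same number of members (4). The share of calls that were higher in the lymph node than in the primary tumor went from 52.5% to 39.5% with DESeq2 and 38.1% with all 5 groups in 1 fit, and the median of all genes in the primary tumor comparison from 0.08 to 0.34 with DESeq2.

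Replicate numbers are shared between groups, but the numbers were not taken as pairs, since no comparison had a correlation of deviations above 0.1 in every pair of libraries with the same number (-0.23 to 0.24 over all pairs, and 0.235, 0.052 and 0.226 in the lymph node against FVB BM). With the replicate number as a block, 5, 6, 1, 0, 4 and 4 members were called in the 6 comparisons in the order above, and 5954, 3566, 1324, 533, 2392 and 3115 genes in all. In the lung only Nfe2l2 was then called, and Gclm (adjusted p = 0.0783), Slc7a11 (0.211) and Txnrd1 (0.111, all edgeR) were not. In the primary tumor Prdx1, the 1 member that fell, was not called (-0.46, adjusted p = 0.0722, edgeR). In the lymph node Gclc was (-0.72, adjusted p = 0.0457), and between the tumor sites Txnrd1 was not (adjusted p = 0.0558, edgeR). Replicates 4 and 5 of the TIMs have no BM library of the same number, so with the block they do not inform a comparison with BM IMs. A call lost there can therefore reflect fewer usable libraries.

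Over other settings, 428 of 465 values of single members kept direction and side of the threshold, and 530 of 560 did when a library was left out. The directions that turned are as follows, all of uncalled log2 values. Gsr in the lymph node became -0.00322 with a filter of 10 counts in every library, -0.063 with the block and -0.092 to 0.10 over left-out libraries. In the lung, Idh1 became 0.040 with all 5 groups in 1 fit and 0.010 with the block, and Sod3 -1.95 with the block. Between the sites Gabarap became -0.00347 with that filter and Mpo -1.91 with the block. Slc40a1 between the strains became 0.048 with the block, and Sod2 in the interaction 0.028 with either use of DESeq2 size factors. Over left-out libraries, the following ranges crossed 0. In the lymph node that of Sod3 was -1.26 to 0.32. In the lung they were -0.26 to 0.017 (Sqstm1), -0.15 to 0.63 (Sod3), -0.080 to 0.0033 (Idh1) and -0.11 to 0.23 (Map1lc3a). Between the sites they were -0.42 to 0.067 (Slc7a11), -0.88 to 0.080 (Nqo1), -0.30 to 0.057 (Mafg), -0.48 to 0.033 (Chac2), -0.077 to 0.36 (Msrb1), -0.11 to 0.016 (Ptgr1), -0.016 to 0.14 (Fth1), -0.0082 to 0.15 (Gabarap), -0.33 to 0.019 (Nos2) and -2.10 to 2.16 (Mpo, -2.10 without lymph node replicate 1). Between the strains they were -0.16 to 0.072 (Sqstm1) and -0.42 to 0.48 (Slc40a1), and in the interaction -0.13 to 0.10 (Sod2). The causes were not tested.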
